A study of Drosophila melanogaster with 2 samples.

Results

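The genes described here are the 8 Hox genes of Drosophila melanogaster (lab, pb, Dfd, Scr, Antp, Ubx, abd-A and Abd-B) and exd and hth, which encode the cofactors of their proteins. They were chosen by name and are 10 of the 13945 protein-coding genes on the main chromosome arms. The study mapped binding of the Pax transcription factor gooseberry (gsb) by chromatin immunoprecipitation and sequencing (ChIP-seq). Its 1 group consists of whole embryos, 0 to 18 h old, of a strain with a gsb-eGFP fusion made by an insertion that targets gsb, and chromatin was precipitated through the GFP tag. There were 2 biological replicates and no untagged or input group among the libraries used here, so no conditions could be compared and no p-value is given. The labels name a possible control experiment, and whether the peak calls were set against it is not known here. Because whole embryos of all these ages were pooled, a weak signal from all cells and a strong signal from few cells cannot be told apart.

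Hox genes give each segment along the head-to-tail axis its identity. In flies they lie in 2 clusters on chromosome arm 3R: the Antennapedia complex (ANT-C) holds lab, pb, Dfd, Scr and Antp, and the bithorax complex (BX-C) holds Ubx, abd-A and Abd-B. Hox proteins bind many targets together with Extradenticle (Exd), a Pbx-type homeodomain protein that enters the nucleus with Homothorax (Hth), a Meis-type homeodomain protein. The complexes are regulated through long noncoding and intronic stretches of enhancers, insulators and Polycomb response elements, so distance from a promoter matters in reading binding there. Gooseberry itself is a segment polarity protein that carries a paired domain and a homeodomain.

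The values are those of the peak caller. Each list gives regions with a signal, a summit and, in the ranked lists, an irreproducible discovery rate (IDR), which estimates the share of irreproducible regions among those ranked at least as high. Regions in the ranked lists are called candidate regions here, and those in the thresholded lists are called peaks that passed. The combined list of both replicates held 2877 peaks that passed among 139318 candidate regions on the 6 main arms, and there was also a shorter conservative list (2715 passed). The lists of the replicates held 1864 peaks that passed in replicate 1 and 1701 in replicate 2. Signal of the combined list is on its own scale and is not comparable with that of a replicate, so each list's values are read within it. A region was called a promoter region when its summit lay within 1 kb of a transcription start site (TSS), and otherwise distal and given to the gene with the nearest protein-coding TSS. By this rule the 10 genes had 487 candidate regions in the combined list, of which 6 passed.

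The 6 regions that passed were all distal, and they lay at hth, Antp, Abd-B and Dfd. The 201 bp around each summit are printed here, because they are the only regions at these genes that the combined list calls as peaks. Each is the plus strand of 3R in Release 6 (dm6), from the RefSeq genome. Capitals mark matches on either strand to any of the 9 motifs searched, which are spelled out further on, and to AGGNGGC.
hth chr3R:10597619-10597819: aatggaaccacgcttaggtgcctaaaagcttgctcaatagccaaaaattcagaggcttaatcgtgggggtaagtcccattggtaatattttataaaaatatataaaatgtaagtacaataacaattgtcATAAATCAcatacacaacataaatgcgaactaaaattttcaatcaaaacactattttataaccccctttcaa
hth chr3R:10560748-10560948: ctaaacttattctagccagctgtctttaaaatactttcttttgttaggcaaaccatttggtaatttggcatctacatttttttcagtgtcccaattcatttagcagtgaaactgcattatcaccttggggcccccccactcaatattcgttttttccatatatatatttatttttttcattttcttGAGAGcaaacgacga
Antp chr3R:6912448-6912648: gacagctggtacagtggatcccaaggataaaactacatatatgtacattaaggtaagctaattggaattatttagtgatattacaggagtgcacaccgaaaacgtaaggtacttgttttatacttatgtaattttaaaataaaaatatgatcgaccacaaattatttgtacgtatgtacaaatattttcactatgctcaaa
Antp chr3R:6920016-6920216: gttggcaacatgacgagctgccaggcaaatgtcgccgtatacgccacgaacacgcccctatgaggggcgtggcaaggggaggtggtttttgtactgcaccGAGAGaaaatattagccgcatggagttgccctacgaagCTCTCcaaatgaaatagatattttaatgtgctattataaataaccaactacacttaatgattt
Abd-B chr3R:16969965-16970165: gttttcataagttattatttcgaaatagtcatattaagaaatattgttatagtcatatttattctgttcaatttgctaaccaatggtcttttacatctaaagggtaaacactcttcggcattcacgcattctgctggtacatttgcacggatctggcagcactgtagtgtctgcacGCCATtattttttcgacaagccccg
Dfd chr3R:6818737-6818937: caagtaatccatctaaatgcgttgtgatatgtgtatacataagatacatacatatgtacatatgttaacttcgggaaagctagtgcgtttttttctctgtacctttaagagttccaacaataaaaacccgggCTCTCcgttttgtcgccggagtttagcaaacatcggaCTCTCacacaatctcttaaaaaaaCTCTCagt
Windows at Scr, Abd-B and Dfd passed in the conservative list only. That in the first intron of Scr is shown because it holds the same 8 letters, ATAAATCA, as the strongest hth window. The Abd-B one holds another match to TGATNNAT, and the Dfd one a match to AGGNGGC.
Scr chr3R:6845457-6845657: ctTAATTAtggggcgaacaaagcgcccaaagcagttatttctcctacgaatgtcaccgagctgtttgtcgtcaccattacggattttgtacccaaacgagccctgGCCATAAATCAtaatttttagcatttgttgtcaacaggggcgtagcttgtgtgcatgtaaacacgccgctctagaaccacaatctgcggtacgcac

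None of the 10 genes had a promoter peak. In the combined list 0 of 10 did, against 13.8% of all protein-coding genes. The count was also 0 in the conservative list (13.2% of all genes), in replicate 1 (9.89%) and in replicate 2 (9.46%). The 0 in the conservative list leaves out a Dfd peak whose summit lay 1061 bp from the Dfd TSS, just over the 1 kb limit. Candidate regions were present at 7 of the 10 promoters in the combined list, beside 89.8% of all genes, and their median signal was 29.2 over 42 regions, against 26.5 over all 38507 promoter candidate regions, of which 4.44% passed. In replicate 1 the median was 18.8, against 15.6 over all, and in replicate 2 the direction turned, with 14.7 against 15.7. Of the 24 TSSs of the 10 genes, 7 had no candidate region within 1 kb in the combined list: all 3 of exd, the only ones of pb and Ubx, and 1 each of Antp and hth. The promoters of lab, Dfd, Scr, Antp, abd-A, Abd-B and hth thus held candidate regions, none of which passed. Most genes have such a region, so its presence alone does not tell binding from background. The highest at hth, Dfd and abd-A had IDRs of 0.605, 0.567 and 0.445 in the combined list.

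Abd-B, which specifies the posterior abdomen, had the highest promoter candidate of the 10 genes in the combined list and in replicate 2, while lab was higher in replicate 1. In the combined list it reached 72.1 and lay 6 bp from a TSS at chr3R:16934066-16934429, with an IDR of 0.0125 where the least reproducible peak that passed had 0.01. The highest Abd-B promoter region of replicate 1, with 37.9, overlapped that one. The highest of replicate 2, with 36.2, lay elsewhere, at chr3R:16968200-16968535 and 206 bp from another Abd-B TSS. The promoter of lab, the most anterior Hox gene, reached 62.2 in the combined list, 42.9 in replicate 1 and 25.3 in replicate 2. That of Antp, which specifies the middle thorax, reached 60.9 in the combined list, 28.3 in replicate 1 and 31.4 in replicate 2. The highest region need not be the same in each list. These 3 promoters stood above the median of the highest promoter signal per gene, 46.0 in the combined list, 24.9 in replicate 1 and 25.9 in replicate 2, except lab in replicate 2. The other 4 stood below that median in the combined list, with 39.7 at Scr, 36.6 at abd-A, 36.4 at hth and 33.8 at Dfd. In replicate 1 Scr (27.4) and hth (27.2) stood above it, with abd-A (22.1) and Dfd (8.22) below, and in replicate 2 all 4 stood below, between 15.3 and 23.2. No promoter candidate was listed for pb or exd in replicate 1 or for pb or Ubx in replicate 2, and exd had one of 28.8 in replicate 2 and Ubx one of 15.4 in replicate 1.

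**Figure D1:**
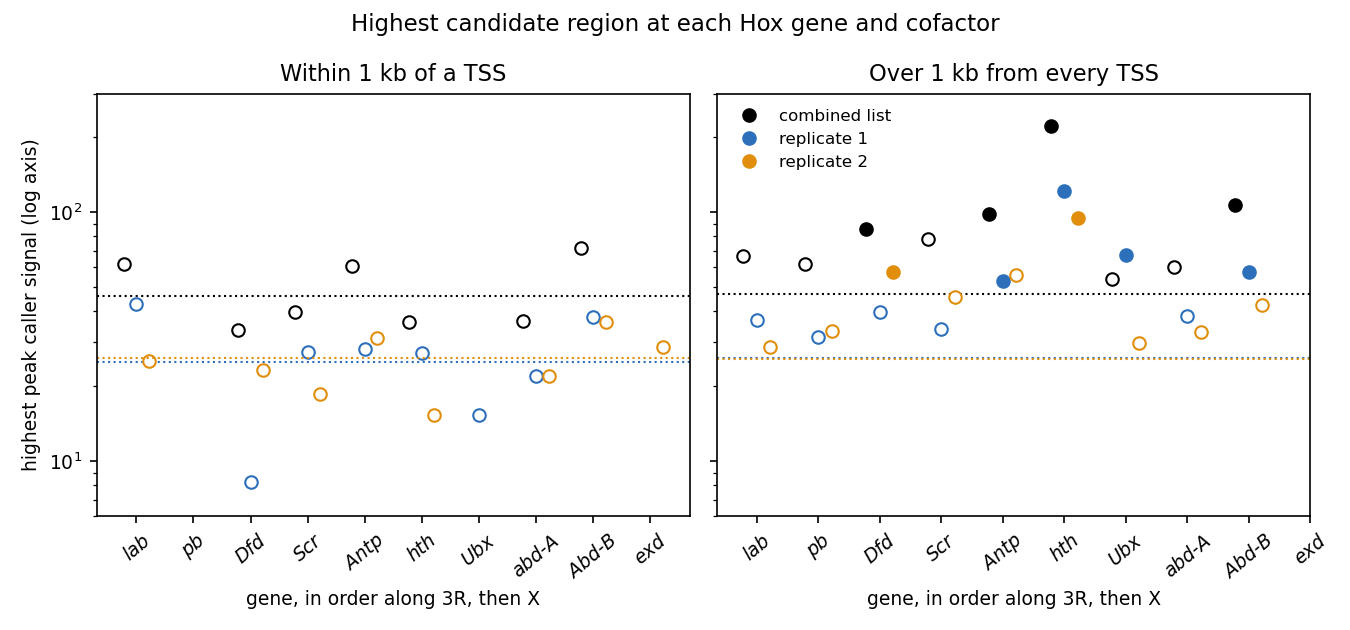
Highest signal (log axis) of any candidate region at each gene, within 1 kb of a TSS (left) and farther away (right), in the combined list (black), replicate 1 (blue) and replicate 2 (orange). Filled points mark genes with a region that passed in that list, open points genes with none, and dotted lines the median of the highest signal over all genes with such a region in that list; no promoter point is filled, and hth stands highest in the right panel in all 3 lists.

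Away from promoters, 4 of the 9 genes with a distal candidate region had a distal peak in the combined list (44.4%), against 8.01% of all genes with such a region. The 9 genes had 445 distal candidate regions in all, with 127 at hth and 99 at Antp, while the median gene with any had 5, and a gene with more regions has more chances of a peak by construction. Antp shares its TSS at 6958370 with CG46458, and distal candidates upstream of this TSS and nearest to it were counted at CG46458. They lie inside Antp but are not among its 99, and none passed in the combined list. Taken per region, 6 of 445 passed, or 1.35% (95% exact Clopper-Pearson interval 0.496 to 2.91, counting error only), against 1.16% of all 100811. The share per region is therefore close to that of all genes. Among genes with at least 25 distal candidate regions, a limit chosen after the values were seen, 4 of 6 of these genes had a distal peak (Dfd, Antp, Abd-B and hth, but not Scr or abd-A), against 25.4% of 1009. The limit leaves out lab (21 regions), Ubx (16) and pb (6), which had no distal peak. It sets only a floor, so the number of regions per gene is not matched.

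The other lists gave 9 of 426 regions in the conservative list (2.11%, against 1.13% of all), 5 of 424 in replicate 1 (1.18%, against 0.771%) and 2 of 407 in replicate 2 (0.491%, against 0.687%). Genes with a distal peak were 5 of 9 in the conservative list, against 7.71% of all genes with a distal candidate. They were 4 of 9 in replicate 1 (5.24% of all) and 2 of 9 in replicate 2 (4.54% of all). Which side of the background the regions fell on thus differed between the replicates. The intervals take regions as independent, but some neighbouring regions overlap and the lists share 2 libraries. They therefore do not test a difference from the background share. The median signal of the distal candidates was 25.4 at these genes, against 23.2 over all, with 15.0 against 13.9 in replicate 1 and 14.6 against 13.8 in replicate 2.

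**Figure D2:**
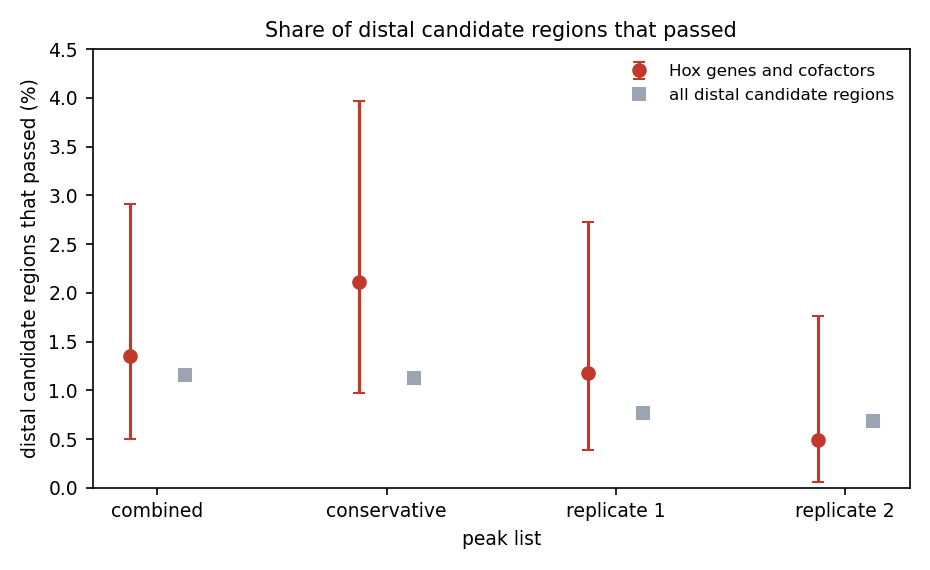
Share of distal candidate regions that passed, in percent, in each of the 4 lists: at the Hox genes and cofactors (red, with 95% exact Clopper-Pearson intervals for counting error) and over all genes (grey squares). The red point lies above the square in the combined, conservative and replicate 1 lists, and below it in replicate 2, at 0.491% against 0.687%. The intervals take regions as independent and are no test.

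The cofactor gene hth held the strongest region of the 10 genes and the only one that passed in all 4 lists. It lies at chr3R:10597692-10597791, in intron 3 or 4 depending on the transcript and 16557 bp from the nearer of the 2 TSSs of hth. Its signal was 221.7 in the combined list, 121.9 in replicate 1 and 94.8 in replicate 2, with an IDR of 0.00016 in the combined list. It ranked 496 by signal among all candidate regions, above 83.4% of the peaks that passed, whose median signal was 112. A second hth peak, at chr3R:10560666-10561029 in intron 7 of 2 of the transcripts and 53428 bp from a TSS, had 87.3 in the combined list, 50.5 in replicate 1 and 40.6 in replicate 2, and passed in replicate 1 but not in replicate 2. Replicate 1 had one more peak inside hth, of 45.0, which by the nearest-TSS rule belongs to Cyp12e1, 76574 bp away.

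The other cofactor gene, exd, stood at the opposite end. It spans 4.04 kb on the X chromosome and had no candidate region, promoter or distal, in the combined, conservative or replicate 1 list. In replicate 2 it had 3 promoter candidates with a highest signal of 28.8, and none passed. The 2 genes differ in size as well, since hth spans 132 kb.

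**Figure D3:**
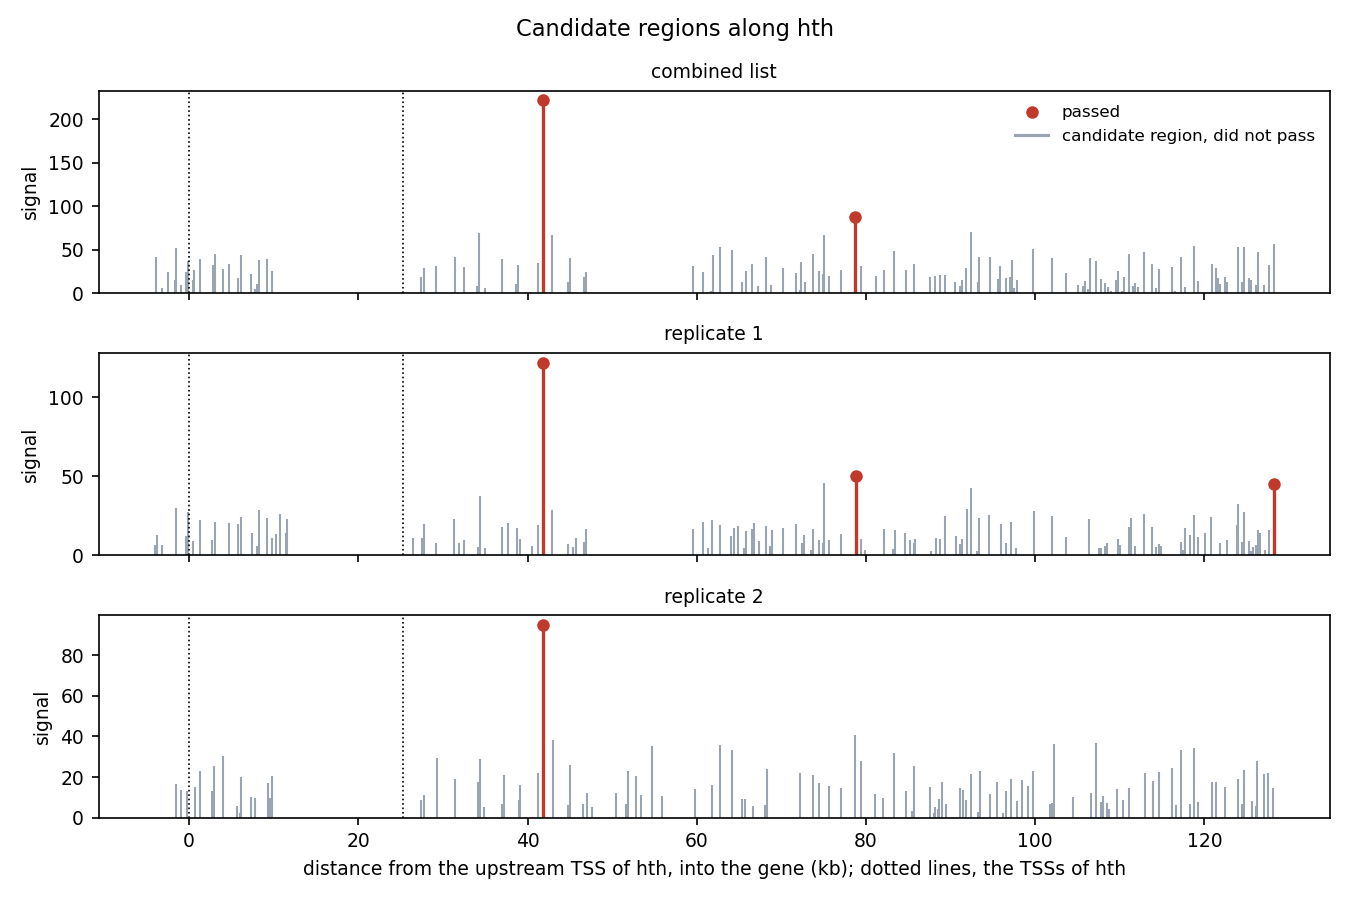
Signal of each candidate region along hth (vertical axes, peak caller signal on each list's own scale) against distance from its upstream TSS into the gene (kb), in the combined list, replicate 1 and replicate 2. Red marks regions that passed, grey those that did not, and dotted lines the 2 TSSs; the tallest red line, 41.8 kb in, is the tallest in all 3 lists, and the red line at 128.2 kb in replicate 1 is the peak nearest to the TSS of Cyp12e1.

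In ANT-C, peaks that passed were given to Dfd and Antp. Dfd, which specifies the mandibular and maxillary segments, had a peak at chr3R:6818655-6819018, between genes and 27001 bp from its TSS, with a tRNA gene's TSS 1057 bp away. The peak lies between the 3′ ends of Dfd, at 6802428, and Scr, at 6823120, nearer to that of Scr. The nearest TSS of Scr, at 6848505, was only slightly farther from it than that of Dfd. The signal of this peak was 85.7 in the combined list, 39.7 in replicate 1 and 57.3 in replicate 2, and it passed in replicate 2 but not in replicate 1. Antp had peaks at chr3R:6912366-6912729 and chr3R:6919934-6920297, both in an intron of Antp that the nested gene CG46458 also spans, 20292 and 12724 bp from the nearest Antp TSS. The site at 20292 bp reached 98.6 in the combined list, 49.3 in replicate 1 and 55.9 in replicate 2. The site at 12724 bp reached 82.3 in the combined list, 43.1 in replicate 1 and 35.1 in replicate 2. Neither passed in the list of either replicate.

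The remaining Hox genes of ANT-C were given no peak in the combined list. Scr, which specifies the labial and first thoracic segments and the salivary glands, had its highest distal region at chr3R:6845375-6845738, in its first intron and 2948 bp from a TSS. That region had 78.1 in the combined list, 34.1 in replicate 1 and 45.5 in replicate 2, and passed in the conservative list alone. A second Dfd region, in its coding sequence at chr3R:6792715-6793078, also passed in the conservative list alone, with 73.7 in the combined list, 38.9 in replicate 1 and 37.2 in replicate 2. Its summit lay 1061 bp from the Dfd TSS, just over the limit for a promoter region. Of the distal regions of these genes this Dfd region was the nearest below the combined threshold, with an IDR of 0.0102. The next was an hth region of 69.7 with an IDR of 0.0165. The Abd-B promoter region described above, with 0.0125, lay between them. The peak of these genes nearest above it was the weaker Antp one, with an IDR of 0.005. The highest distal region of lab in the combined list had 66.8 there, 34.7 in replicate 1 and 28.9 in replicate 2. That of pb, which specifies the mouthparts, had 62.2 in the combined list, 31.5 in replicate 1 and 33.2 in replicate 2.

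In BX-C, Abd-B was the only Hox gene given a peak in the combined list by the nearest-TSS rule. The peak lies at chr3R:16969883-16970246, in the first intron of 1 of its 10 transcripts and 1491 bp from a TSS, and had 106.8 in the combined list, 57.5 in replicate 1 and 42.6 in replicate 2. It passed in replicate 1 and not in replicate 2. Another Abd-B intronic region, at chr3R:16948689-16949052, passed in the conservative list only, with 84.7 in the combined list, 42.5 in replicate 1 and 36.0 in replicate 2. Ubx, which specifies the posterior thorax, had a peak in replicate 1 only, at chr3R:16704284-16704623 in an intron 29972 bp from its TSS. Its signal was 67.4 there, and the nearest candidate region was 6753 bp away in replicate 2 and 7864 bp away in the combined list. The combined list had no candidate summit between -37.836 and -18.504 kb from the Ubx TSS (negative into the gene), a stretch that holds this peak. Ubx had 16 distal candidates in that list, 43 in replicate 1 and 32 in replicate 2, so its highest signals rest on unlike numbers of regions. The distal region of abd-A highest in the combined list had 60.2 there, 37.8 in replicate 1 and 17.7 in replicate 2. None of the 48 distal candidates of abd-A, which specifies the anterior abdomen, passed. A peak just beyond the 3′ end of abd-A was given to Glut3 by the nearest-TSS rule.

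The order of the genes by their highest distal signal changed between lists except at its top, each list's highest region being taken. In the combined list it ran hth (221.7), Abd-B (106.8), Antp (98.6), Dfd (85.7), Scr (78.1), lab (66.8), pb (62.2), abd-A (60.2) and Ubx (53.8). In replicate 1 Ubx followed hth, with 67.4, while in replicate 2 only lab stood below Ubx, which had 29.8. In replicate 2 Dfd followed hth, with 57.3, while in replicate 1 it had 39.7 and stood below Ubx, Abd-B and Antp. Of these 3 lists, hth led each, and the place of every other gene differed between at least 2 of them.

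Across all 4 lists the genes had 11 distinct distal sites that passed at least once, at 6 genes, and none at lab, pb, abd-A or exd. Of these, 8 were intronic, 2 intergenic and 1 in coding sequence. The same split over all distal peaks or candidate regions is not given here, so it is not read as a trait of these sites. Of the 6 in the combined list, 1 passed in both replicates, 3 in one and 2 in neither, although all 6 had a candidate region in each replicate. Over all 1169 distal peaks these shares were 35.5%, 28.7% and 35.8%. All but the strongest hth site had a signal below the median of all peaks that passed, promoter and distal together (112). Over distal peaks alone the median was 103, which the Abd-B site (106.8) also exceeded.

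The replicates ranked the distal candidates at these genes about as they ranked all. A combined summit lay in a candidate region of both replicates for 243 of the 445 regions (54.6%), against 50210 of all 100811 (49.8%). Over those 243 regions the signals of the replicates had a Spearman rho of 0.346, against 0.327 over all matched distal regions. Overlapping combined regions can lie in the same replicate regions, so some pairs of values were counted more than once. These are descriptions across regions that share 2 libraries and their depth, and regions are not replicates.

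**Figure D4:**
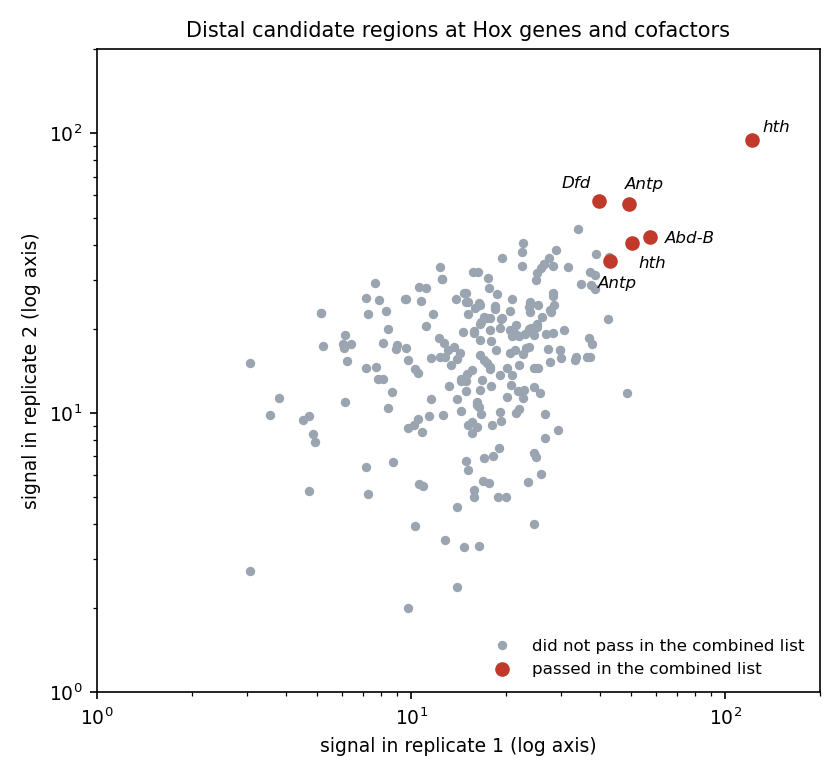
Signal in replicate 2 against signal in replicate 1 (both log axes, peak caller signal) for the 243 distal candidate regions at Hox genes and cofactors found in both replicates. Red points, named by gene, passed in the combined list and sit at the upper right, with the strongest hth region at 121.9 and 94.8 apart from the rest; grey points did not pass. Some points coincide, because overlapping combined regions can share their replicate regions, as at the stronger Antp site.

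Seen as whole complexes, candidate regions were about as dense as elsewhere. ANT-C, 338 kb from lab to Antp, had 11.0 per 10 kb and BX-C, 316 kb from Ubx to Abd-B, had 10.2, against 10.4 over the main arms. The median signal was 24.2 in ANT-C and 25.4 in BX-C, against 24.0. Of the candidates, 4 of 370 passed in ANT-C (1.08%) and 6 of 323 in BX-C (1.86%), against 2.07% of all, promoters included. In replicate 1, 0 of 309 passed in ANT-C and 3 of 328 in BX-C (0.915%), against 1.51% of all. In replicate 2, 2 of 316 passed in ANT-C (0.633%) and 3 of 315 in BX-C (0.952%), against 1.39% of all. These backgrounds mix promoter regions, of which 4.44% passed in the combined list, with distal ones, of which 1.16% did. The distal share was 0.771% in replicate 1 and 0.687% in replicate 2. All peaks in BX-C were distal, and its share lay below the mixed background but above the distal one in each of these lists. In ANT-C, 1 peak of the combined list was at a promoter.

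Not every peak in the complexes was given to a Hox gene. In ANT-C the strongest was at bcd, the maternal anterior determinant, 205 bp from its TSS, with 119.8 in the combined list, 48.6 in replicate 1 and 75.5 in replicate 2. In BX-C, 5 of the 6 peaks lay between Ubx and Abd-B and were nearest to the TSS of Glut3 or MSAmiP, which lie between the Hox genes. The strongest of these, at chr3R:16798858-16798964, lies between genes, 10580 bp from the TSS of Glut3, a sugar transporter gene, and 29214 bp from that of abd-A. It had 165.8 in the combined list, 80.0 in replicate 1 and 85.6 in replicate 2 and passed in all 4 lists. A second region given to Glut3, at chr3R:16806158-16806521, had 81.2 in the combined list, 39.0 in replicate 1 and 43.5 in replicate 2. It lies just beyond the 3′ end of abd-A, at 16807214. Its summit is 18029 bp from the TSS of Glut3 and 21765 bp from that of abd-A. The other 3 were in introns of MSAmiP, which overlaps the noncoding RNA gene iab8. Those 3 had 108.8, 72.8 and 77.6 in the combined list, 55.1, 36.2 and 32.9 in replicate 1 and 60.3, 41.1 and 50.5 in replicate 2.

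**Figure D5:**
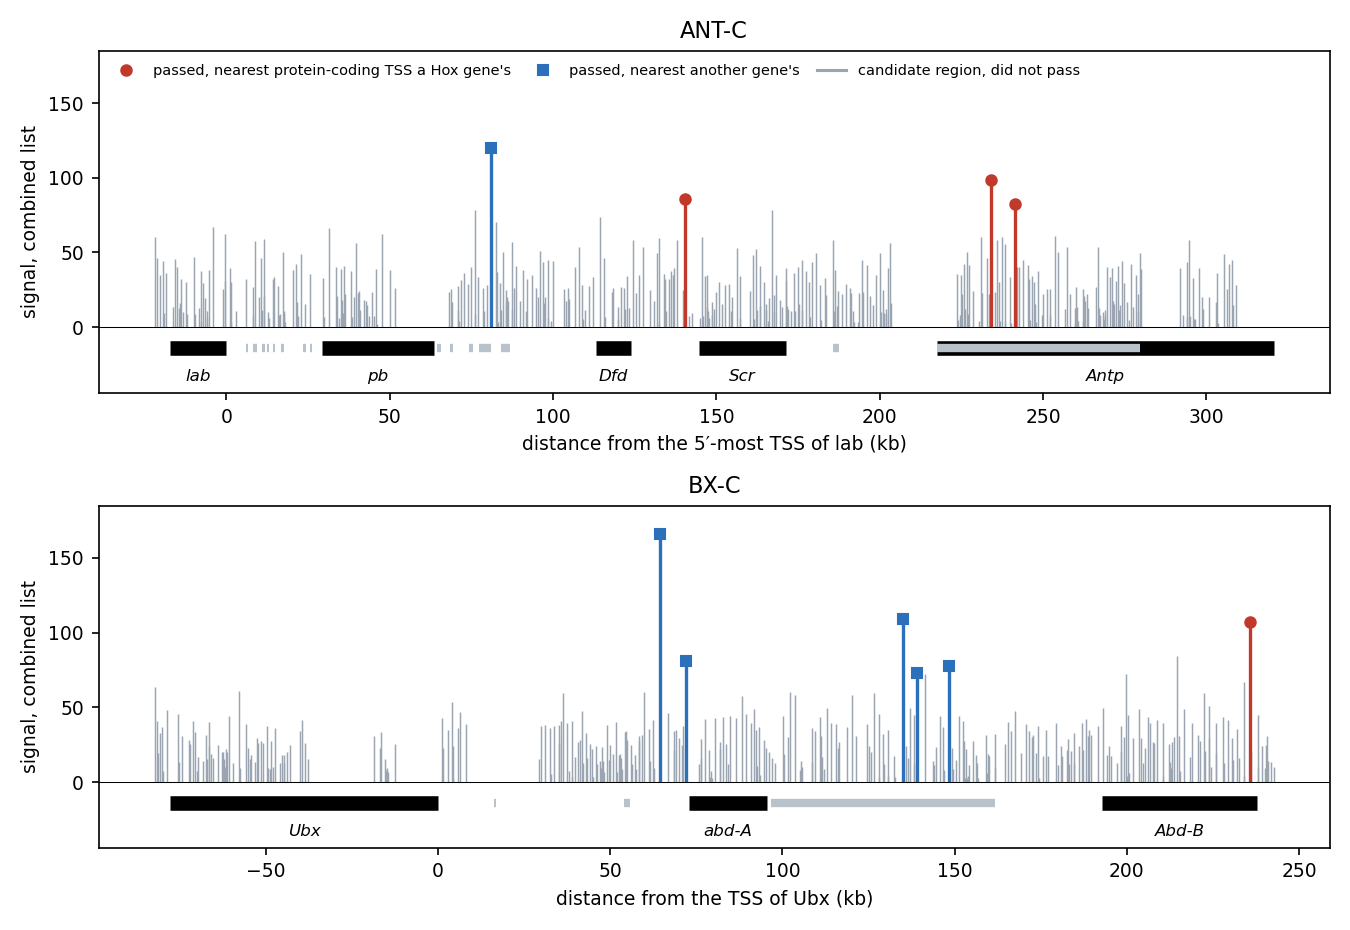
Signal in the combined list (vertical axes) of each candidate region across ANT-C, by distance from the 5′-most TSS of lab, and BX-C, by distance from the TSS of Ubx (kb); the Hox genes are drawn as black bars and other protein-coding genes as grey bars. Red circles are peaks given to a Hox gene, blue squares peaks given to another gene and grey lines candidates that did not pass; BX-C has 1 red and 5 blue points, the highest at 165.8.

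The windows at bcd and at the strongest of the peaks given to Glut3 and to MSAmiP, and a further MSAmiP window, are shown because they are the strongest sequences in the complexes outside the Hox genes or hold AGGNGGC.
bcd chr3R:6759571-6759771: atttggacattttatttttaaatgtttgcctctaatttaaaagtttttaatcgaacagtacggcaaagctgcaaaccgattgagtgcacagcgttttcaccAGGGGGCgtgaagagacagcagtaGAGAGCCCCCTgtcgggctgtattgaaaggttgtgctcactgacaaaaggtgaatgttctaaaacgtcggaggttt
Glut3 chr3R:16798791-16798991: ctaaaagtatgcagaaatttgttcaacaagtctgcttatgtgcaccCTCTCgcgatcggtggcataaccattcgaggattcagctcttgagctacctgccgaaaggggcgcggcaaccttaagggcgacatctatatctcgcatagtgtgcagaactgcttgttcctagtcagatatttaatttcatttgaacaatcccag
MSAmiP chr3R:16869328-16869528: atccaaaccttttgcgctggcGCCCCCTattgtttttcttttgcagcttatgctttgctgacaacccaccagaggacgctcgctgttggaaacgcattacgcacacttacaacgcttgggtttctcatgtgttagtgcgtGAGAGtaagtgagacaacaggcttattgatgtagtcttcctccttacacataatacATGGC
MSAmiP chr3R:16882646-16882846: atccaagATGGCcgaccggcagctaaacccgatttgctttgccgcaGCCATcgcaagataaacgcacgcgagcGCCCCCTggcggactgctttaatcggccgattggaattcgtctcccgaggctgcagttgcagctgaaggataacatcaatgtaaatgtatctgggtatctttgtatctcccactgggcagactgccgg

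The motifs searched on both strands of the 201 bp windows were TAATTA (homeodomain core), TAAT followed by ATTA after 2 or 3 letters (homeodomain dimers), GTCACGC (paired domain core), TGATNNAT (Exd with Hox), TGACAG (Hth), GAGAG (GAGA factor), GCCAT (Pho) and TATCGATA (DREF). GAGAG was in 3 of the 6 windows, at Dfd, Antp and the weaker hth site, against 26.5% of the 1169 distal windows. GCCAT was in 1, at Abd-B, against 31.3%, and TGATNNAT in 1, at the strongest hth site, against 12.1%. In the Scr window TGATNNAT overlaps GCCAT by 2 letters, and the letters of its match, ATAAATCA, are those of the hth match. The remaining 6 motifs were in none of the 6 windows, and were in at most 13.8% of all distal windows. The stronger Antp window held no match, and all of these are matches of letters and not sites.

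Over candidate regions, which are many more, TGACAG was in 13.9% of the 445 windows at these genes, against 8.69% of all 100811. GAGAG was in 30.6%, against 23.4%, and GCCAT in 46.3%, against 43.0%. TGATNNAT was in 12.8%, against 10.5%, and TAATTA in 10.6%, against 9.25%. The paired domain core, GTCACGC, was in 0.674%, against 1.26%, and TATCGATA in 0%, against 0.225%. The dimers were in 0.899%, against 0.701%, with 2 letters between and in 0.899%, against 0.981%, with 3. AGGNGGC, the core of the site of the insulator protein CTCF, was searched only after the sequences had been seen. It was in 0 of the 6 windows at Hox genes and hth (and in that of the Dfd region of the conservative list), in 3 of the 6 windows of the other peaks in the complexes (bcd and 2 at MSAmiP), in 8.04% of distal windows and in 7.75% of all 2877. Over candidate regions it was more frequent, in 12.4% of the 445 windows and 11.7% of all 100811. The median GC content of the 6 windows was 35.6%, against 38.3% over all distal peaks, but the direction turned with 50 bp on either side of the summit (39.6%, against 36.6%).

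Genes that act with or on the Hox genes were set beside them by lists. Any peak, at a promoter or distal, was found at 4 of the 10 Hox and cofactor genes and at 18.1% of all protein-coding genes. Of 25 Polycomb and trithorax group genes, whose products keep Hox genes silent or active, 10 had a peak that passed, 8 at a promoter and 6 distal. The strongest were ph-p (1347 in the combined list, 767 in replicate 1 and 595 in replicate 2), Trl (1141), brm (783) and E(z) (255). Of 12 Hox target genes, 6 had one, all 6 distal and 2 also at a promoter: the strongest were at Dll, a limb gene (531, with 346 in replicate 1 and 180.4 in replicate 2), ems (186), fkh (158) and upd1 (157). Of 11 early regulators of Hox genes, 3 had one: bcd (119.8), cad (95.4) and odd (74.6). Of 9 other TALE homeodomain and cofactor candidate genes, disco-r (97.0) and tsh (82.8), both listed as cofactor candidates, had 1 distal peak each. The others (achi, vis, ara, caup, mirr, tio and disco) had none, and the tsh peak is also counted among the Hox target genes. Of the 5 other genes listed for ANT-C (bcd, zen, zen2, ftz and Ama), bcd alone had one. Per distal candidate region, 9 of 194 passed in the Polycomb and trithorax list (4.64%), 8 of 428 in the Hox targets (1.87%), 1 of 200 in the early regulators (0.5%), 2 of 275 in the TALE and cofactor candidates (0.727%) and 0 of 46 in the ANT-C genes, against 1.16% of all. The background for a promoter peak is the 13.8% given above, and no list was tested.

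The pattern of hth and Antp, distal peaks without a promoter peak, was found at 590 of the 12014 genes that had no promoter peak, and 146 of them had 2 or more, as hth and Antp did. Those with the most distal peaks in the combined list, outside the 10 genes, were chinmo, shn and Mef2 with 7 each and CG43245 and Hr4 with 6 each. Their highest distal signals were 749 at chinmo, 238 at shn, 197 at Mef2, 318 at CG43245 and 314 at Hr4, all but that of Mef2 above the 221.7 at hth. Likeness here is the count of distal peaks in 1 combined list only.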

How the data were processed

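The deposited files were peak lists on dm6, per the labels: for each of the 2 biological replicates and for both together, all ranked candidate regions and those that passed an IDR threshold, with a conservative list for both together. Not given in the sources used here are the aligner, the peak caller, their versions and the sequencing depth. Chromatin was sonicated to 200 to 800 bp, per the labels. In these lists the authors gave each region a signal on the peak caller's own scale, a score capped at 1000 and, in ranked lists, the −log10 of the global IDR. The authors' README files mention tracks of fold change over a control, which were not used here.

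Coordinates are Release 6, 1-based. TSSs came from Ensembl release 115 without transposable elements, and sequence from RefSeq, which matched the arms' names and whose arm lengths were compared with the annotation's. Summits on the 6 main arms were placed within 1 kb of any TSS or given to the nearest protein-coding TSS. A combined region was found in a replicate when its summit lay in one of that replicate's candidate regions. Across lists, sites with summits within 200 bp were merged. Intervals of shares are exact binomial. The analysis used Python 3.11.15, pandas 2.3.3, numpy 2.4.6 and scipy 1.17.1, and the counting steps were tested on simulated regions.

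All 10 genes are named. From each other list up to 4 genes with the strongest peak are named, and 5 genes of like pattern by their number of distal peaks. Other genes in the text were picked once values were known. The members and the lists were chosen with earlier results of these data known. Samples were grouped by the labels into 1 group, and the p-values a comparison would need were not computed. The alternatives were the conservative list, each replicate's own list, a higher signal, a lower IDR, other windows, any base in place of the summit, RefSeq TSSs and the transcribed span.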

Additional observations from a re-analysis of the deposited data

How the results depend on the processing

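The count of 0 genes with a promoter peak held under every alternative tried but a window of 2 kb, under which the Abd-B peak at 1491 bp made it 1. Other windows, any base in place of the summit and RefSeq TSSs were tried in the combined list only. They therefore did not cover the Dfd peak of the conservative list, whose near end lies within 1 kb of the Dfd TSS. With 2 kb, 2 genes kept a distal peak, since the Dfd peak, 1057 bp from a tRNA gene's TSS, was no longer distal either. Of the 6 distal peaks, 1 was left at 1 gene, the strongest at hth, when the signal had to reach the median of the peaks that passed or the global IDR had to be at most 0.001, and the share of regions that passed was then 0.225%. Leaving out 1 replicate gave 2 to 5 distal peaks, at 2 to 4 genes, and shares from 0.491% to 1.18%. The lower values are those without replicate 1. Counting each motif once per window, the 5 motif matches in the 6 windows became 3 with 50 bp on either side of the summit and 12 with 200 bp, since a longer window holds more letters by construction. Under the other alternatives run, distal peaks numbered 4 to 9. No paired analysis was possible because there is only 1 group. The depth behind the lists is unknown, so a region that did not pass may be below what these libraries could show. With 6 peaks at 4 genes, no share among them is precise.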

Other observations

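Each of the long loci held a stretch in which the combined list has no candidate region at all. In BX-C the stretch between summits was 21.1 kb (chr3R:16742512-16763661), upstream of Ubx. In ANT-C it was 20.2 kb (chr3R:6882037-6902214) and reached into the 3′ end of Antp. At hth it was 17.7 kb (chr3R:10612104-10629788) and included the downstream hth TSS at 10614276, so that a TSS used by 4 of the 5 hth transcripts had no candidate region within 1 kb. Other TSSs without one in the combined list lay in stretches of 13.7 kb (Ubx), 16.6 kb (pb), 19.4 kb (Antp, the TSS at 6999228) and 18.6 kb (exd). The median distance between neighbouring candidate summits on the main arms was 0.615 kb, and 407, 436 and 536 of 139312 distances were at least as long as those in BX-C, ANT-C and hth. The hth stretch was also empty in most of its length in both replicates, with 14.9 kb in replicate 1 and 17.7 kb in replicate 2. The longest empty stretch in BX-C was 10.3 kb in replicate 1 and 19.9 kb in replicate 2. In ANT-C it was 20.1 kb in replicate 1 and, elsewhere in the complex, 17.0 kb in replicate 2. The mappability of these stretches, and their part in the count of 0 promoter peaks, was not tested.

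A peak in replicate 1 between genes, at chr3R:7021179-7021518 and 22121 bp from the nearest TSS of Antp, had 52.9 in that list and no candidate region in replicate 2 or in the combined list. The Ubx peak of replicate 1, of 67.4 and in the stretch of Ubx described above without combined candidates, had none either. Both exceed the signals that the combined peaks at Dfd and the weaker hth and Antp sites had in the same replicate, 39.7, 50.5 and 43.1.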
